A study of Macaca fascicularis with 44 samples.

Results

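The comparison of cortical brain endothelial cells (BECs) after 7 days in culture with freshly isolated cortical microvessels was made on 16 of the 44 libraries of the series. They are the 8 cortical libraries of the P0D0 fraction and the 8 cortical libraries of the P0D7 fraction, chosen by their labels. All came from the cortex of cynomolgus monkeys (Macaca fascicularis) of both sexes. The animals were 4.8 to 5.9 years old, had finished other pre-clinical studies and had passed a washout period. The P0D0 fraction is the pellet of microvessels left by enzymatic digestion and centrifugation, so that it can hold RNA of other cells of the vessel wall and of brain tissue. The P0D7 fraction is such a pellet after 7 days on collagen IV and fibronectin in endothelial medium, with puromycin at first. Each library carries a code, BBB followed by a number, read here as a preparation, and 6 codes (BBB029, BBB030, BBB031, BBB032, BBB035 and BBB036) occur in both fractions. The libraries hold 10 codes. Fewer animals are described in the methods, so a code cannot be taken as an animal, and a p-value here reflects how far libraries vary, which may in part be technical.

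The blood–brain barrier is formed by endothelial cells joined by tight junctions, which carry efflux pumps, nutrient transporters and receptors on their surface and let little pass between or through them. In the brain these cells are wrapped by pericytes and astrocyte endfeet, whose signals help to keep the barrier in place. Puromycin blocks protein synthesis, and brain endothelial cells survive it better than most of their neighbours because their efflux pumps remove it. Endothelial cells grown away from their neighbours are known to lose part of the expression that marks the barrier and to begin to divide, so the step from vessel to dish is where a culture model can part from the tissue.

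The deposited tables name genes by Ensembl identifiers without symbols. Of the 28623 identifiers, 0 could be given a symbol, because the reference table of 40596 genes used here holds 0 Ensembl identifiers. Known markers of endothelial cells, pericytes, glia, neurons and blood cells were therefore not analysed here, and the labelled cell types were not checked against them. The comparison is described by classes of genes and by 4 identifiers, with no function given to them. In bulk RNA, fewer cells of a type and less RNA per cell cannot be told apart.

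The total count per library ran from 8600889 to 10738453 in P0D0 and from 15513781 to 23138726 in P0D7, so that each P0D7 library was deeper than any P0D0 library. P0D0 replicate 3 (BBB031) stood apart. Its most abundant identifier took 14.8% of its counts, which compares with 2.25% to 6.06% in the rest of P0D0 and 2.99% to 4.15% in P0D7. The second took 6.42%, where the rest of P0D0 held at most 2.97%. Pearson's r of log2 CPM (counts scaled to a common library total) with the libraries of its own fraction, across genes, averaged 0.930 for this library, and 0.938 to 0.960 for the other P0D0 libraries. Values that leaving it out moved most are given with and without it.

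Most genes changed between vessel and culture. Of 13437 genes with at least 1 FPKM (fragments scaled to gene length and to the library total) in at least 4 of the 8 libraries of either fraction, 8942 were differentially expressed (66.5%), with a fold change of at least 1.5 and an adjusted p of at most 0.05 in edgeR's quasi-likelihood test with Benjamini-Hochberg adjustment. A total of 4145 genes were higher in P0D7 (30.8%) and 4797 were lower (35.7%). With every library thinned to the lowest total count, 8879 genes were called, 3962 of them higher and 4917 lower. Among the genes called, those that fell had moved further than those that rose. The median fold change was 4.06 among the lower genes (quartiles 2.18 and 23.0) and 2.43 among the higher genes (quartiles 1.87 and 3.46). A change of at least 16-fold was fitted for 1336 of the lower genes (27.9%) and for 159 of the higher genes (3.84%), and of at least 64-fold for 866 and 23 genes. The fitted fold change of genes close to 0 in one fraction depends on the prior count. Of the lower genes, 2095 had passed the limit of 1 FPKM in P0D0 only. Of the higher genes, 336 had passed it in P0D7 only. The P0D7 libraries are deeper, so a fall can be followed to a lower level than that from which a rise can start. The difference in size between falls and rises is therefore a description and was not tested. The 95% interval of the fold change lay wholly beyond 1.5-fold for 3768 of the lower genes and 3020 of the higher genes.

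**Figure D1:**
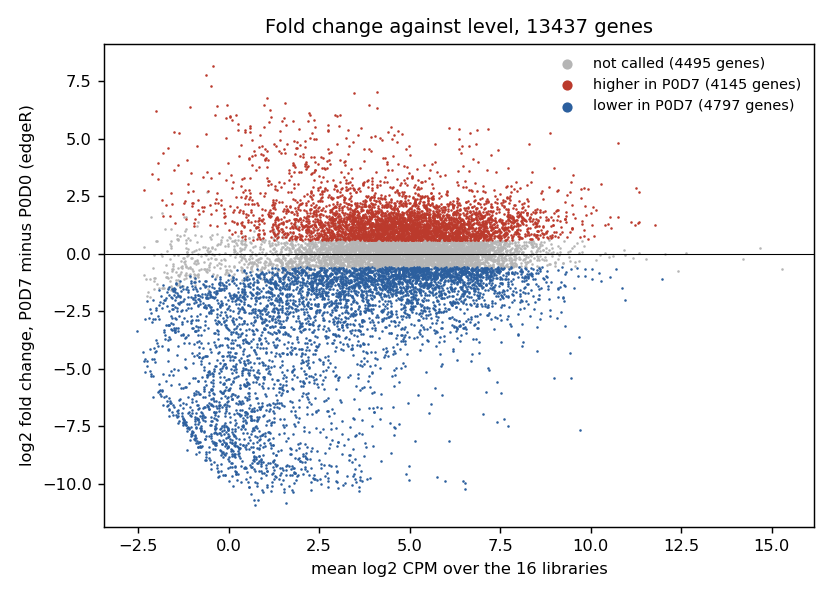
Log2 fold change of each of the 13437 genes tested, P0D7 minus P0D0, against its mean log2 CPM over the 16 libraries. Points are genes, red for the 4145 called higher in P0D7, blue for the 4797 called lower and grey for the 4495 not called; the lower genes reach much larger fold changes than the higher ones.

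A smaller set of genes kept its level. For 1895 genes, 14.1% of those tested, the 95% interval of the fold change lay within 1.5-fold in either direction, and for 4449 genes it lay within 2-fold. Of the 4495 genes not called, 1548 had an adjusted p of at most 0.05 in the same edgeR test with a fold change under 1.5. The other 2947 missed the threshold of the adjusted p, which does not show that they were unchanged. The median standard error of the log2 fold change was 0.15 among the genes not called, 0.17 among the higher genes and 0.29 among the lower genes.

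The genes that fell furthest had low to moderate levels in the vessels and a wide spread over the P0D0 libraries. The 1336 genes at least 16-fold lower had a median of 4.78 FPKM in P0D0 and 0.041 FPKM in P0D7, and 434 of them stood at 10 FPKM or more in P0D0. The SD of log2 CPM over the 8 P0D0 libraries had a median of 0.78 in this class. It was 0.56 in the 1084 genes that were 4 to 16-fold lower, 0.37 in the 2377 genes that were 1.5 to 4-fold lower and 0.31 in the genes not called. The class at least 16-fold lower took 8.19% to 13.1% of the counts of a P0D0 library, lowest in replicate 4 and highest in replicate 6, and 0.136% to 0.178% of the counts of a P0D7 library. Among these 3 lower classes the SD ran against the median level in P0D0, which was lowest in the class that fell furthest. The classes were cut by the fold change, so these values are a description and were not tested.

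Among the higher genes, the largest changes started from low levels. The 159 genes at least 16-fold higher had a median of 0.404 FPKM in P0D0 and 12.0 FPKM in P0D7, where 89 of them stood at 10 FPKM or more. Their SD of log2 CPM over the 8 P0D7 libraries had a median of 0.78, above the 0.49 of the 658 genes that were 4 to 16-fold higher and the 0.27 of the 3328 genes that were 1.5 to 4-fold higher. They took 0.0752% to 0.130% of the counts of a P0D0 library and 2.46% to 3.48% of the counts of a P0D7 library. The bulk of the rise lay in moderate changes. The genes that were 1.5 to 4-fold higher took 13.1% to 18.0% of the counts in P0D0 and 35.0% to 38.6% in P0D7.

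In terms of counts, which are not scaled to gene length, the exchange between the classes was large. Genes called higher took 14.8% to 20.5% of the counts of a P0D0 library (median 18.7%) and 47.9% to 54.2% of a P0D7 library (median 51.1%). Genes called lower took 38.0% to 45.0% in P0D0 (median 42.3%) and 10.6% to 12.7% in P0D7 (median 11.2%). The fractions do not overlap in either share, which the calls themselves fix. Genes not called took 36.2% to 46.8% in P0D0, highest in replicate 3, and 35.1% to 39.3% in P0D7, and here the fractions overlapped. The share of the counts outside the genes tested was at most 0.416% in any library.

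**Figure D2:**
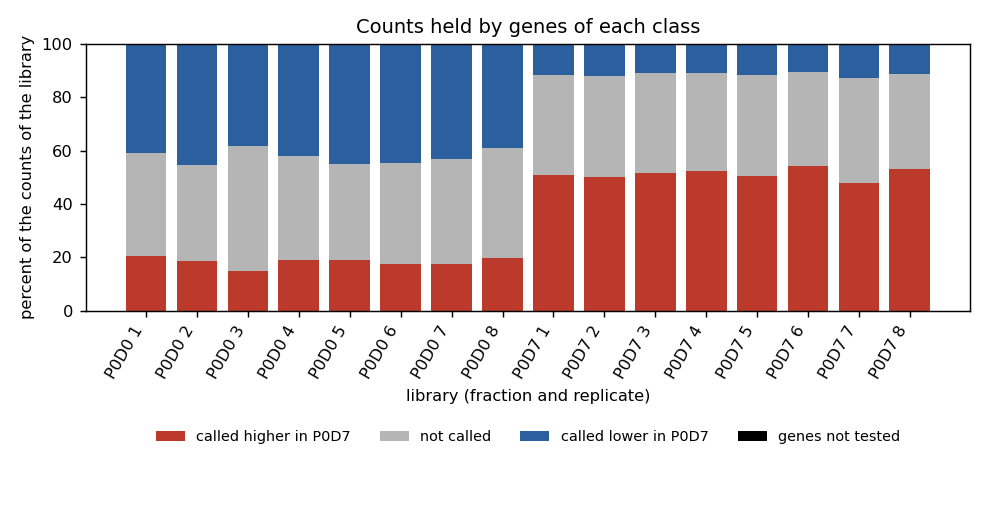
Share of the counts of each of the 16 libraries, in percent, held by genes called higher in P0D7 (red), not called (grey), called lower (blue) and not tested (black). Genes called higher take 14.8% to 20.5% of a P0D0 library and 47.9% to 54.2% of a P0D7 library.

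The most abundant transcripts were largely exchanged. Of the 100 identifiers with the largest mean share of counts in P0D0, 39 were also among the 100 of P0D7. A total of 65 of the 100 of P0D0 were called lower and 14 higher, and of the 100 of P0D7, 72 were called higher and 7 lower. Over all genes tested, 35.7% were called lower and 30.8% higher. Each list of 100 was picked by its level in one fraction, which favours genes higher in that fraction. These counts are therefore a description. The same identifier took the first rank in all 8 P0D7 libraries. In P0D0, 2 identifiers shared that rank. Together, the top 10 identifiers of a library held 15.2% ± 5.62 of its counts in P0D0 and 13.1% ± 1.52 in P0D7 (SD, n = 8 each), a difference within the spread between libraries (-2.09 percentage points, p = 0.415, two-sided exact permutation test). Without P0D0 replicate 3 the difference was -0.19 percentage points. The concentration of the library on a few transcripts was thus not shown to differ, although the transcripts themselves did.

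Fewer genes were detected in the cultured cells. The number of identifiers with at least 1 FPKM was 12726 to 13355 in P0D0 (median 12906) and 11035 to 11288 in P0D7 (median 11140), with no overlap. The difference of the means was -1808 genes (p = 0.000155, two-sided exact permutation test, the smallest this design can give). The deeper libraries are the ones with fewer genes. After each library was thinned to the lowest total count, the number of identifiers with at least 5 counts was 14224 to 14654 in P0D0 and 12055 to 12387 in P0D7 (difference of the means -2160, p = 0.000155 by the same exact permutation test). These are net numbers, in which genes that rose past a limit offset genes that fell below it. At a limit of 10 FPKM the libraries held 6571 ± 302 genes in P0D0 and 6483 ± 198 in P0D7 (SD, n = 8 each; p = 0.507, two-sided exact permutation test). At a limit of 100 FPKM the order turned, with 381 to 508 genes in P0D0 and 561 to 676 in P0D7 (p = 0.000155 by the same exact permutation test).

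The number of genes passing the filter of 1 FPKM shows the same imbalance. It was passed in both fractions by 10816 genes, in P0D0 only by 2229 and in P0D7 only by 392. A gene that passed only through the fraction where it is high had to differ, so these counts are a description. Among the 10816 genes that passed in both, 3809 were called higher and 2702 lower. Passing in both fractions also depends on the change, since the filter set aside 2095 genes called lower and 336 called higher, so nothing is read from this balance. A total of 9714 genes stood at 1 FPKM or more in all 16 libraries, and 5809 of them (59.8%) were called, below the 66.5% of all genes tested. On the other side, 821 genes had at least 1 FPKM in each P0D0 library and in no P0D7 library, and 99 genes the reverse.

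A total of 115 of the genes tested held 0 counts in all 8 P0D7 libraries. In P0D0 they held 6 to 713 counts over the 8 libraries (median 114). Set against a floor of 3 counts over the P0D7 fraction, which is 0.0192 CPM, they were at least 4.17-fold to at least 495-fold lower in P0D7, with a median bound of at least 79.2-fold. The bounds cover only the counting error of the fraction with 0 counts, with read pairs, which carry no molecular identifiers, taken as independent. The counts of the other fraction enter without their own error, and variation between libraries is not covered. The most abundant of these genes averaged 7.69 FPKM in P0D0. A count of 0 selects weak genes, since a strong gene that fell as far would still leave counts, and it does not show that a transcript was lost completely. Only 1 gene tested held 0 counts in all 8 P0D0 libraries. It held 105 counts over the P0D7 libraries and was at least 16.8-fold higher there, against the same floor of 3 counts over the fraction.

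Sorted by mean FPKM into 5 classes (under 0.1, 0.1 to 1, 1 to 10, 10 to 100 and at least 100), 7923 of the 13437 genes (59.0%) stayed in their class from P0D0 to P0D7. A total of 2005 genes moved up by 1 class and 2278 moved down by 1 class, which is close to a balance. Moves of 2 classes or more were mostly downward, with 1132 genes (8.42%) against 99 genes upward (0.737%). The strongest transcripts of the vessels were often not kept. Of the 455 genes with at least 100 FPKM in P0D0, 240 stayed in that class, 164 fell to 10 to 100 FPKM, 25 fell to 1 to 10 FPKM and 26 fell to under 1 FPKM. None of these 455 fell under 0.1 FPKM. The class of at least 100 FPKM nevertheless grew to 609 genes, because 356 genes entered it from 10 to 100 FPKM, 12 from 1 to 10 FPKM and 1 from under 1 FPKM. Under 0.1 FPKM stood 35 genes in P0D0 and 952 in P0D7.

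**Figure D3:**
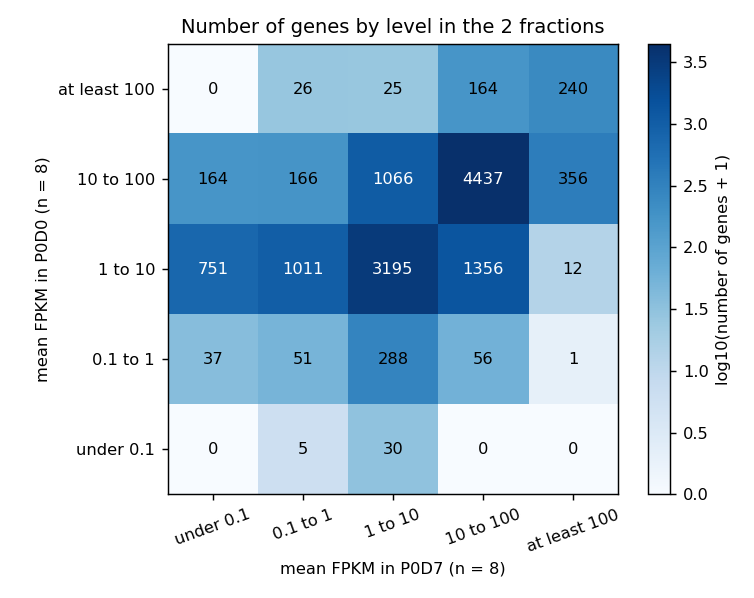
Number of genes in each class of mean FPKM in P0D0 (rows) and in P0D7 (columns), n = 8 libraries each, with the shade giving log10 of the number plus 1. The diagonal holds 7923 genes, and the cells 2 or more classes off it hold 1132 genes that moved down and 99 that moved up.

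The direction of change went with the level, in part through the filter of 1 FPKM. Among 5648 genes with a mean of 1 to 10 FPKM over the fractions, 22.5% were called higher and 44.1% lower. Of the 2490 lower genes of this class, 1333 had passed the filter in P0D0 only, and of its 1271 higher genes, 255 had passed in P0D7 only. Among 6533 genes with 10 to 100 FPKM, 38.4% were higher and 24.4% lower, and 186 of the 1594 lower genes had passed in P0D0 only. Among 529 genes with at least 100 FPKM, 56.7% were higher and 28.4% lower, and 71.1% showed no overlap between the fractions, where the share was 46.8% over all genes tested and 40.6% to 50.2% in the other classes. The 727 genes with 0.1 to 1 FPKM were called higher in 8.67% and lower in 77.4% of cases. All 563 lower and all 63 higher genes of that class had passed the filter in one fraction alone, so the direction of each followed from the filter. How many went each way did not, and is given as a description.

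Direction also varied with the length of the gene, as implied by its count, its FPKM and the total of the library. The higher genes had a median implied length of 1989 bases, the lower genes 2609 and the genes not called 2628. Of the 1065 genes of 500 to 1000 bases, 48.0% were higher and 29.8% lower, and of the 2907 genes of at least 4000 bases, 20.8% were higher and 41.5% lower. The 849 genes shorter than 500 bases broke this order, with 25.6% higher and 43.7% lower. Their median standard error of the log2 fold change was 0.44, against 0.16 to 0.22 in the other classes of length. RNA integrity per library was not analysed here, and its part in this pattern was not tested.

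For many genes the implied length itself differed between libraries. Among 8414 genes with at least 50 counts in each of the 16 libraries, it varied by less than 1% for 3246 genes (38.6%) and by more than 10% for 3177 (37.8%). The libraries of the fractions did not overlap in implied length for 288 genes that were longer in P0D0 and 147 that were longer in P0D7. The mean length differed at least 1.2-fold for 98 and 25 of these genes, and the largest ratio was 2.23, for a gene that was longer in P0D0. Of these 123 genes, 65 were called differentially expressed (52.8%), where the share over all genes tested was 66.5%. How the software derived the lengths is not given in the sources used here, so a change of transcript form was not shown. FPKM and counts can part for such genes, and the tests used counts.

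The fractions did not overlap for 6284 genes (46.8%). For 3011 genes each P0D7 library lay above each P0D0 library in FPKM (22.4% of the genes tested), and for 3273 each lay below (24.4%). Without P0D0 replicate 3, 6831 genes did not overlap, 3093 higher and 3738 lower, the largest shift from leaving out any library. Leaving out a library can only keep or raise this number. No overlap was found for 70.3% of the genes called higher, 66.7% of the genes called lower and 3.80% of the genes not called. Within a fraction the libraries varied to a like degree. The common biological coefficient of variation reached 31.1% in P0D0 and 31.9% in P0D7 (n = 8 each). By gene, the SD of log2 CPM was larger in P0D0 for 58.5% of the genes, with a median of 0.37 against 0.32 in P0D7, where the libraries are deeper.

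The 6 codes present in both fractions allow the change to be read within preparations. Between the P0D7 and the P0D0 library of a code, 3848 to 4749 genes were at least 1.5-fold higher in P0D7 and 4702 to 5367 were at least 1.5-fold lower. The change was smallest in BBB035, with a median absolute log2 difference of 0.86, and largest in BBB032, with 1.21. In each of the 6 codes more genes were lower than higher, by the narrowest margin in BBB031, whose P0D0 library is replicate 3 (4749 higher and 4827 lower). Pearson's r between codes, over the log2 differences of all genes (which are no independent replicates), was 0.902 on average (15 pairs of codes, 0.839 to 0.939). The codes share no library, but all differences are taken between the same 2 fractions.

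Most genes moved the same way in each preparation. At least 1.5-fold in one direction in 6 of 6 codes were 2310 genes that rose (17.2% of the genes tested) and 3025 that fell (22.5%), together 5335 (39.7%). By sign alone, 4282 genes were higher in 6 of 6 codes and 4556 were lower in 6 of 6. Of the 4145 genes called higher, 3717 (89.7%) were higher in 6 of 6 codes, and of the 4797 called lower, 4199 (87.5%) were lower in 6 of 6. The calls and the codes share 12 libraries, so the second is no independent check of the first. A total of 1144 genes (8.51%) were at least 1.5-fold higher in at least 1 code and at least 1.5-fold lower in another, and 199 of these were called. The SD of the log2 difference over the 6 codes had a median of 0.57 among the genes called and 0.43 among the genes not called. These genes also differ in level. The median in P0D7 was 1.54 FPKM among the lower genes, 23.2 FPKM among the higher genes and 11.7 FPKM among the genes not called. The part of the level in this spread was not tested.

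**Figure D4:**
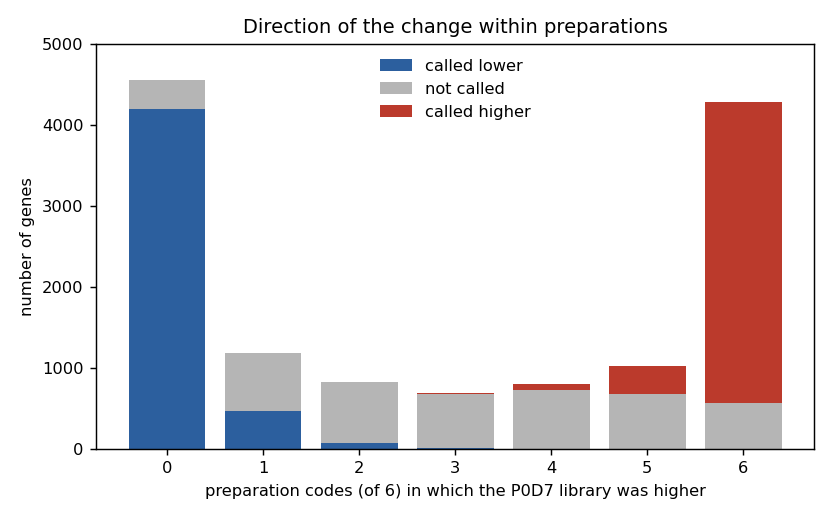
Number of genes by how many of the 6 preparation codes had the higher log2 CPM in the P0D7 library, with genes called higher in red, called lower in blue and not called in grey. The end bars, 4556 genes lower in 6 of 6 codes and 4282 higher in 6 of 6, hold most of the called genes; 87 genes with 0 counts in both libraries of a code are left out.

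The 4 libraries whose codes occur in one fraction only, BBB037 and BBB038 in P0D0 and BBB027 and BBB028 in P0D7, were not used in the comparison within codes. With the code as a block, edgeR called 8899 genes in the 12 libraries of the shared codes. In the 4 other libraries, 8719 of these (98.0%) differed in the same direction and 7571 (85.1%) did so by at least 1.5-fold. Over all genes tested the direction was the same for 89.7%, and over the genes not called with the block for 73.5%. These 4 libraries are no independent check. The filter of 1 FPKM and the scaling of the counts had used all 16 libraries. It admitted 2229 genes through P0D0 only and 392 through P0D7 only, which raises the agreement in direction by a part that was not measured.

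The 4 identifiers followed in each library were those with the largest difference of mean FPKM in each direction among called genes whose fractions do not overlap. Their calls and the lack of overlap are therefore fixed by the choice, and their values and tests are given as a description. ENSMFAG00000003332 rose from the 65th to the 8th rank by mean FPKM. It lay between 295 and 808 FPKM in P0D0 (median 469) and between 3008 and 4783 FPKM in P0D7 (median 3491). The lowest P0D7 library thus stood 3.72-fold above the highest P0D0 library. The means were 521 ± 177 and 3677 ± 585 FPKM (SD over 8 libraries). The edgeR fit gave it a log2 fold change of 2.85 with a standard error of 0.21 (adjusted p = 5.64e-10). It rose by a log2 difference of 2.58 to 3.35 in the 6 codes, least in BBB029 and most in BBB036.

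ENSMFAG00000030086 rose from the 60th to the 9th rank. It lay between 411 and 710 FPKM in P0D0 (median 487) and between 2320 and 4208 FPKM in P0D7 (median 3563). The lowest P0D7 value was that of replicate 7, of BBB035. In edgeR the log2 fold change was 2.70 with a standard error of 0.17 (adjusted p = 8.06e-11). The paired log2 difference was 1.76 in BBB035 and 2.65 to 3.27 in the other 5 codes. BBB035 was also the code with the smallest median change over all genes.

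ENSMFAG00000000455, in the 8th rank in P0D0, fell out of the abundant transcripts to rank 2362. It lay between 2745 and 10366 FPKM in P0D0 (median 7112), lowest in replicate 4 and highest in replicate 3, and between 18.0 and 66.2 FPKM in P0D7 (median 26.1). Even so, the lowest P0D0 library stood 41.4-fold above the highest P0D7 library. Its share of the counts fell from between 0.530% and 2.00% to between 0.00348% and 0.0128%. In edgeR the log2 fold change was -7.67 with a standard error of 0.42 (adjusted p = 1.94e-11), and the paired log2 difference ran from -8.24 in BBB035 to -6.66 in BBB029. P0D7 libraries still held at least 631 counts of it, so it was detected in each of them.

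ENSMFAG00000030014 fell from the 11th to the 111th rank and thus stayed among the stronger transcripts. It lay between 1929 and 4687 FPKM in P0D0 (median 2764), highest in replicate 3, and between 360 and 523 FPKM in P0D7 (median 443). In edgeR the log2 fold change was -2.71 with a standard error of 0.20 (adjusted p = 8.04e-10), and -2.51 without P0D0 replicate 3. The paired log2 difference was -3.81 in BBB031, the code of P0D0 replicate 3, and -2.90 to -2.08 in the other 5 codes. In P0D7 it varied little, with a coefficient of variation of 14.1% over the 8 libraries, against 29.8% in P0D0. Its implied length was 424 bases, in the class of short genes with the largest median standard error (0.44). Its own standard error of 0.20 was smaller, with at least 2875 counts in each library.

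**Figure D5:**
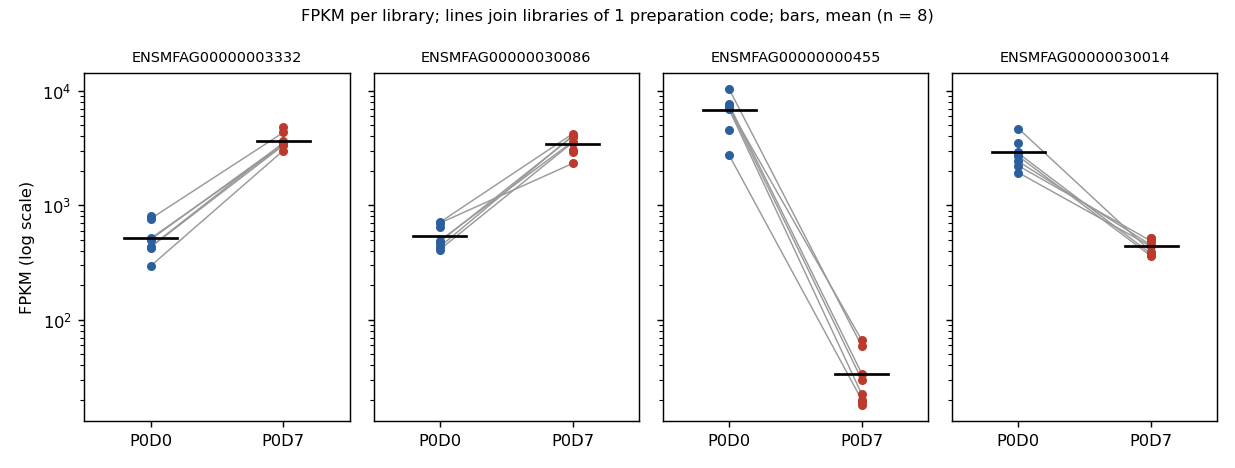
FPKM on a log scale of the 4 identifiers in each of the 8 P0D0 libraries (blue) and the 8 P0D7 libraries (red), with the mean as a bar and grey lines joining the libraries of the 6 codes present in both fractions. The first 2 rise and the last 2 fall in each of the 6 codes, and genes were chosen so that the fractions do not overlap.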

How the data were processed

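RNA of cortical P0D0 and P0D7 pellets was sequenced as paired, strand-marked libraries after depletion of ribosomal RNA. The authors deposited raw estimated counts, of which 1.40% in the 16 libraries are not whole (tolerance 1e-06). The deposited FPKM table holds fragments scaled by the authors to gene length and library total. Ribosomal, short and low-quality reads had been removed in ArrayStudio before aligning to the Washington University cynomolgus assembly with the Omicsoft Sequence Aligner and counting over the Ensembl gene model.

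Counts were rounded and fitted with edgeR 4.0.16 in R 4.3.3 (TMM, trended dispersion, quasi-likelihood F test) on 13437 genes. FPKM gave the filter and the levels. Log2 CPM had a prior count of 2. Fold changes and classes are as stated in the text. Values per library were compared by two-sided exact permutation tests. Alternatives used DESeq2 1.42.0 and limma 3.58.1 (pseudocounts of 1 and 0.1), other size factors, filters and thresholds, thinned counts, fits with 22, 12 or 4 libraries and leaving out each library. The fit was tested on simulated data with 200 changed genes, in equal numbers up and down. Far more genes were called here, so that test does not cover a change this wide.

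Libraries of a fraction differed by more than sampling noise (mean chi-square per gene of at least 18.2). The differences were uneven. In P0D7, replicates 1, 2 and 7 were at 24.0 to 58.1 from each other and at 86.5 to 201 from the rest. The rest were at 26.9 to 80.5 among themselves. In P0D0, replicate 3 was at 91.2 to 210 from the other libraries and replicate 4 at 78.2 to 210. This measure grows with depth. The codes were taken to pair the fractions only if the deviations of each pair correlated over 0.1, which 4 of 6 did, so the main fit has no block. Total counts of 8600889 to 23138726 set the precision. The named identifiers were to have the largest FPKM differences among called, non-overlapping genes, 2 in each direction; lists of markers, junction genes and transporters were prepared and not run, for lack of symbols. The comparison, lists and rules were chosen with earlier results of these data known.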

Additional observations from a re-analysis of the deposited data

Results flagged for a closer look

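P0D0 replicate 3 was far from the other 7 P0D0 libraries in 2 measures. Its top 10 identifiers held 28.5% of its counts, where the rest of P0D0 had 11.2% to 15.4%, and its TMM factor was 0.869, against 0.991 to 1.07. A total of 22 groups of values were examined for such samples, of which chance flags about 1 in 20. Without this library 8927 genes were called in place of 8942.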

How the results depend on the processing

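All alternatives for the differential genes kept their number within 1.5 times of 8942. It ran from 6686 at a fold change of at least 2 to 11765 with no FPKM filter. The fit with no FPKM filter tested 19873 genes and called 59.2% of them, against 66.5% of 13437 in the main fit. Between alternatives and the main analysis, 0 genes were called in opposite directions. Without each library in turn 8834 to 9057 genes were called, 4083 to 4215 of them higher and 4710 to 4862 lower. DESeq2 called 8951 genes, 8670 of them shared, with 3878 higher and 5073 lower. Its size factors moved the median log2 fold change of all genes by -0.09, and RLE factors in edgeR by -0.08. With RLE factors 3868 genes were higher and 5061 lower. The split thus moved more with these size factors than with any library left out. With only the 4 libraries of unshared codes 7429 genes were called. With the preparation code as a replicate block 8899 genes were called in 12 libraries, and 8931 without the block, so the pairing moved the count little. Deviations of same-code libraries correlated at 0.095 on average (-0.0089 to 0.17), and 4 of 6 P0D0 libraries correlated best with their own code. Those of different codes correlated at -0.015 on average (30 pairs, -0.15 to 0.12), with 1 pair over 0.1.

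Genes moved in 6 of 6 codes depended on the fold asked for. By sign alone there were 8838, 4282 higher and 4556 lower, and at least 2-fold there were 3617, 1282 higher and 2335 lower. Without each code in turn there were 5436 to 6102, 2346 to 2769 higher and 3069 to 3333 lower. Leaving out a code asks for fewer codes, so the count could only stay at 5335 or rise. Genes whose fractions do not overlap were 6338 to 6831 without each library, most without P0D0 replicate 3. Their number, too, could only stay at 6284 or rise when a library was left out. The difference in detected genes was -1839 to -1749 without each library and -88.8 (p = 0.507, exact permutation test) at 10 FPKM. The difference in the share of the 10 most abundant genes was -2.66 to -0.19 percentage points. The 4 identifiers kept their direction and their calls. With the 20 most abundant genes left out, 3 of them were not in the fit. Depth limits the genes of few counts, above all in P0D0.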
